A study of Homo sapiens with 15 samples.

Results

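The 10 genes described here encode transcription factors that set blood cell lineage: GATA1, KLF1, GFI1B, TAL1, LMO2, GATA2, MYB, SPI1, CEBPA and RUNX1. They were chosen by name for their known role in hematopoiesis, with earlier results of these data known, and no measured value enters the rule. All 10 were found among the 17769 genes with an identifier of the first table (knockouts) and the 60510 of the second (resistance). All 10 passed the filter on low values in both tables, which required a log2 CPM (reads per gene scaled to library size) of -1 or more in at least 3 libraries.

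The libraries were made from polyadenylated RNA of K562, an established BCR-ABL1+ chronic myeloid leukemia cell line, with 3 libraries in each of 5 groups. In the knockout experiment, K562 cells that express Cas9 received a lentiviral guide RNA against HSP90AA1 (HSP90α-KO) or HSP90AB1 (HSP90β-KO), or an empty vector (EV, labelled as genotype WT), and none of these groups was treated. Per the labels, transduced cells were sorted by a fluorescent marker and then selected as single clones, so that the clone and the knockout cannot be told apart. In the resistance experiment, cells were kept for months with rising amounts of PU-H71, an inhibitor that binds the N-terminal domain of HSP90. Resistant clones were then picked (PUHr), while a parental clone was kept in the same concentration of the solvent DMSO (DMSO group). Both groups are labelled as genotype WT. The authors reported that PUHr cells had acquired a missense variant of HSP90AA1 and a copy number gain that includes this gene. The labels do not say whether the 3 libraries of a group came from 1 clone or several, or whether PU-H71 was present at harvest. The p-values therefore measure the spread between these libraries.

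GATA1 drives the erythroid and megakaryocytic program, and KLF1 acts beside it at globin and other red cell genes. GFI1B is a repressor needed in the same lineages, and TAL1 and LMO2 sit with GATA1 and the cofactor LDB1 in one DNA-bound complex. GATA2 and MYB act earlier, in stem and progenitor cells. SPI1 encodes PU.1, the factor of myeloid and B-lymphoid cells that antagonizes GATA1, CEBPA directs granulocyte formation, and RUNX1 is needed for definitive blood stem cells and for myeloid and megakaryocytic maturation. K562 cells resemble early erythroid cells, and the question asked of these data was whether erythroid and myeloid factors moved apart when an HSP90 isoform was lost or PU-H71 resistance was acquired.

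The labels were first checked with the targeted genes. HSP90AA1 was at 704 ± 18.7 CPM in EV (mean ± SD, n = 3), 90.4 ± 2.34 CPM in HSP90α-KO and 1206 ± 14.2 CPM in HSP90β-KO. HSP90AB1 was at 2806 ± 21.1, 3307 ± 38.8 and 1913 ± 25.1 CPM, so each targeted transcript was lowest in its own knockout. In the resistance table HSP90AA1 was at 1712 ± 14.1 CPM in DMSO and 1568 ± 21.0 in PUHr (log2 fold change -0.13 ± 0.019, adjusted p = 4.7e-05 by limma). HSP90AB1 was at 4531 ± 42.0 and 3847 ± 98.1 CPM (-0.24 ± 0.020, adjusted p = 1.9e-07). Neither gene was targeted there, so these values do not check the PUHr label. The authors reported more HSP90α protein in PUHr than in parental cells on retreatment with PU-H71, and protein was not measured here. Libraries held 19594381 to 26216730 reads on genes in the first table and 21584840 to 24477692 in the second, and 1 read was worth 0.0381 to 0.0518 CPM and 0.0402 to 0.0469 CPM. PUHr replicate 2 stood apart from replicates 1 and 3, with a chi-square per degree of freedom of 4.23 and 3.24 against 1.57 between the other pair. EV replicate 2 also stood apart, at 2.80 and 2.14 against 1.41. Pairs of HSP90α-KO libraries were at 2.68 to 3.18 and those of HSP90β-KO at 1.15 to 1.44. Of the genes fixed as K562 markers, ABL1, a partner of the BCR-ABL1 fusion, had 5937 to 8442 reads a library in the knockout table and 7852 to 9781 in the resistance table. The transferrin receptor gene TFRC, which serves iron uptake, had 30248 to 33638 reads a library in DMSO and 19832 to 22615 in PUHr. HBE1, embryonic ε-globin, had 0 to 1 read a library in PUHr against 1 to 4 in DMSO. Of the 6 monocyte and granulocyte markers, 0 are listed for the knockouts, and their sum was 0.0845 to 0.294 CPM in DMSO and 0.442 to 0.756 CPM in PUHr. The B-lymphoid genes CD79A, PAX5 and EBF1 had at most 4 reads in any DMSO or PUHr library. The 3 fibroblast markers (COL1A1, COL1A2 and DCN) summed to 9.80 to 10.1 CPM in DMSO and 5.42 to 5.96 in PUHr, where COL1A2 had 1 to 5 reads against 116 to 137. The 2 T-lymphoid markers listed in the knockout table (of CD3E, CD3D and CD2) summed to 7.61 to 8.43 CPM in EV, 3.66 to 4.56 in HSP90α-KO and 15.2 to 17.3 in HSP90β-KO, and the part of any of these levels in the results was not tested. In bulk RNA, fewer cells of a type and less RNA per cell cannot be told apart.

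For orientation, the start regions of 4 of the factors are printed here, as RefSeq gives them on build GRCh38.p14, since MYB and CEBPA gave the largest differences of the 10 factors in HSP90α-KO and KLF1 and GATA1 stand at the centre of the erythroid side. RefSeq windows of 300 bases (250 before the start site, 50 after) were found for 8 of the 10 genes, LMO2 and SPI1 being the other two, and gave 11 windows. Each run below reads 5′ to 3′ on the gene's strand and ends at the base before the first annotated exon base. Capitals mark a GATA motif, written AGATAA with its variants TGATAA, then the form AGATAG and finally TGATAG, on either strand, or a CACCC box (CACCC on either strand), which are the letters that GATA factors and KLF factors are known to bind. The KLF1 run is chr19:12887202-12887451 on the minus strand, GATA1 is chrX:48786340-48786539 on the plus strand, MYB is chr6:135181058-135181307 on the plus strand and CEBPA is chr19:33302535-33302784 on the minus strand.
KLF1: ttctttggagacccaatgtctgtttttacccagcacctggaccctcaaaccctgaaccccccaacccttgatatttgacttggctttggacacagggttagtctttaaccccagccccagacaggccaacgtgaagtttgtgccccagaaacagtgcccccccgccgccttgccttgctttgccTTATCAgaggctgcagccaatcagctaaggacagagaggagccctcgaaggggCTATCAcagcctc
GATA1: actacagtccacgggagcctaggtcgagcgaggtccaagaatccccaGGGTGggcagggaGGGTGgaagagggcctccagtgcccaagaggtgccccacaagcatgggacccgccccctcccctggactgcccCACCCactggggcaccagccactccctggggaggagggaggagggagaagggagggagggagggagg
MYB: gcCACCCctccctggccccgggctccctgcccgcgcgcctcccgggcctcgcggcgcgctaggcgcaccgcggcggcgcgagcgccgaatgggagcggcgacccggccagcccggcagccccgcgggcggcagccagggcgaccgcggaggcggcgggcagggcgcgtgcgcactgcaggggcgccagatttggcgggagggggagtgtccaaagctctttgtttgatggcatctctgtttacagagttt
CEBPA: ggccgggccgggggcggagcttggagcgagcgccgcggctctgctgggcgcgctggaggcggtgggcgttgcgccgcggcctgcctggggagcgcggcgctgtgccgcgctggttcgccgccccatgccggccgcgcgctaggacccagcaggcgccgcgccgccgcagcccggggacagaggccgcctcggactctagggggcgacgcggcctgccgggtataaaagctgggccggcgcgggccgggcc

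KLF1 held 2 GATA matches, beginning 66 and 13 bases before the start site. A GATA match was also found in 1 of the 2 TAL1 windows and in each of the 2 GFI1B windows, and in no window of GATA1, GATA2, RUNX1, CEBPA or MYB. Of the 35116 windows of all genes, 25.0% held a GATA match and 59.9% a CACCC box. The whole GATA1 window held 4 CACCC boxes and the first GATA2 window also 4, while CEBPA, MYB, RUNX1 and KLF1 held 1 each. The second TAL1 window held 4 matches to the RUNX letters TGTGGT or TGCGGT, which 19.6% of windows hold at least once. These matches describe the letters only, since no binding was measured here.

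All 10 factors were expressed in both control groups, from CEBPA at the bottom to GATA1 at the top. To compare levels between genes, CPM was divided by the summed length of annotated exons in kb. In EV, GATA1 was at 117 CPM per kb, followed by MYB (35.95), KLF1 (35.7), SPI1 (32.0), GATA2 (28.6), TAL1 (16.1), LMO2 (15.2), RUNX1 (7.79), GFI1B (4.87) and CEBPA (1.65). MYB and KLF1 were the 1 pair of neighbours in this order whose libraries overlapped. In DMSO, the order was GATA1 (182 CPM per kb), KLF1 (69.0), MYB (45.2), LMO2 (40.7), GATA2 (29.3), TAL1 (18.1), SPI1 (14.9), GFI1B (11.3), RUNX1 (5.01) and CEBPA (1.28), and no neighbours overlapped. GATA1 thus lay above 98.8% of ranked genes in EV and 99.2% in DMSO, and CEBPA above 37.7% and 32.9%. RUNX1 spans 15574 exon bases over all its annotated forms, so its per-length level depends on the forms that K562 uses.

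**Figure D1:**
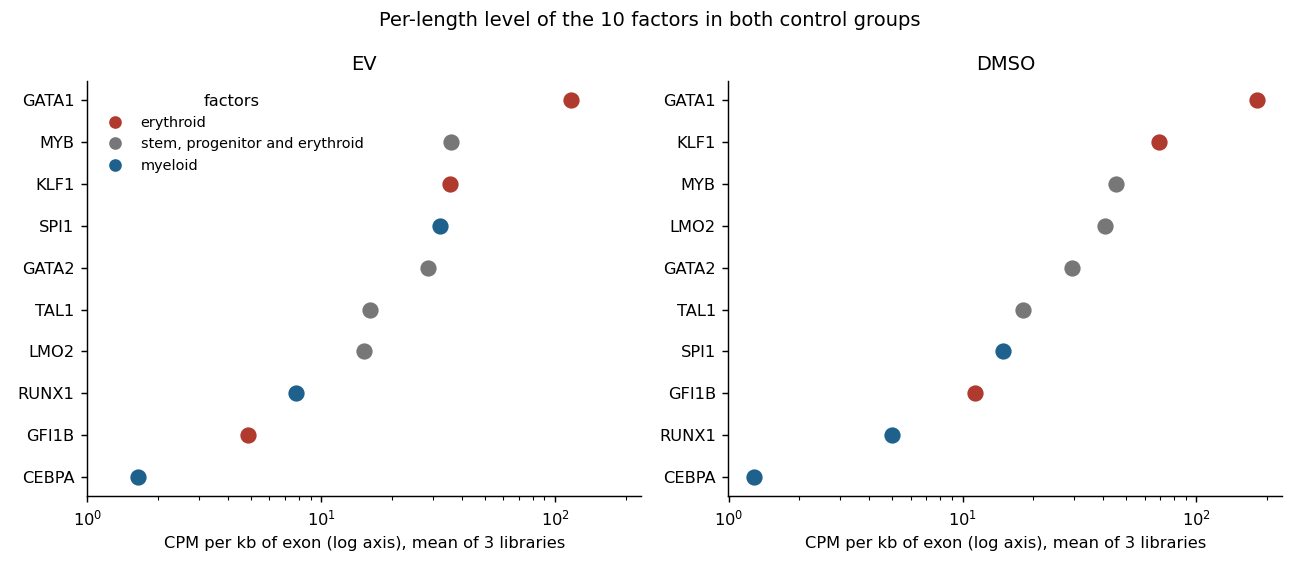
Per-length level of each factor in EV (left) and DMSO (right), as CPM per kb of exon on a log axis, mean of 3 libraries, colored by role. GATA1 is highest and CEBPA lowest in both; SPI1 ranks 4 of 10 in EV and 7 of 10 in DMSO.

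The factors kept these outer places in every group. GATA1 remained first and CEBPA last in HSP90α-KO, HSP90β-KO and PUHr. SPI1, 4 of 10 in EV, ranked 3 of 10 in HSP90α-KO (47.1 CPM per kb), where its libraries overlapped with those of KLF1 (42.3), and 3 of 10 in HSP90β-KO (33.2). In PUHr it ranked 9 of 10 (5.39), after 7 of 10 in DMSO. LMO2, 4 of 10 in DMSO, ranked 2 of 10 in PUHr (56.2 CPM per kb), where its libraries overlapped with those of KLF1 (54.5). KLF1 and GATA2 overlapped in HSP90β-KO (22.7 and 22.4 CPM per kb).

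In HSP90α-KO against EV, all 10 factors differed (limma on log2 CPM, Benjamini-Hochberg adjusted p under 0.05 over 17039 tested genes), 7 higher and 3 lower. Such differences were common, since 27.5% of tested genes were higher and 26.6% lower. MYB and CEBPA passed the further limit of a log2 fold change above 1 or below -1, here called changed, which 10.3% of tested genes did. The libraries of both groups lay apart for 9 of the 10 factors, against 57.3% of tested genes. The median over the 10 was 0.22 on the log2 scale, with a median of -0.010 over all tested genes.

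The erythroid factors moved little and not in one direction. GATA1 was at 173, 187 and 183 CPM in the EV libraries and 217, 209 and 188 CPM in HSP90α-KO. Every knockout library lay above every EV library, by a log2 fold change of 0.18 ± 0.042 (SE, adjusted p = 0.00085 by limma). The call was lost after quantile normalization (0.0998, adjusted p = 0.052). KLF1 was at 55.3, 62.1 and 55.2 CPM in EV and 74.5, 66.9 and 63.2 CPM in HSP90α-KO, again without overlap (0.24 ± 0.054, adjusted p = 0.00042). GFI1B went the other way, with 28.2, 31.6 and 29.4 CPM in EV and 28.3, 25.6 and 25.1 CPM in HSP90α-KO. The highest knockout library of GFI1B lay within the EV range, and its log2 fold change of -0.17 ± 0.058 (adjusted p = 0.014) no longer passed without EV replicate 2 (adjusted p = 0.089) or without HSP90α-KO replicate 2 (0.057) or 3 (0.061).

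Among the factors shared by stem, progenitor and erythroid cells, MYB rose most. MYB, which keeps progenitors dividing, was at 196, 194 and 203 CPM in EV and 409.9, 408 and 419 CPM in HSP90α-KO. All knockout libraries lay far above all EV libraries, at a log2 fold change of 1.06 ± 0.029 (adjusted p = 6.5e-21), or 2.09-fold. After quantile normalization the value was 0.98, just under the limit for a changed gene. LMO2, the bridging protein of the GATA1 and TAL1 complex, rose from 45.5, 42.7 and 43.6 CPM in EV to 64.8, 64.8 and 67.4 CPM in HSP90α-KO (0.58 ± 0.046, adjusted p = 3.1e-11). GATA2 was at 134, 146 and 142 CPM in EV and 173, 159.6 and 149 CPM in HSP90α-KO (0.19 ± 0.042, adjusted p = 0.00042). TAL1, the DNA-binding helix-loop-helix partner in the same complex as LMO2, fell from 90.6, 92.9 and 92.4 CPM in EV to 69.7, 70.1 and 69.0 CPM in HSP90α-KO (-0.40 ± 0.039, adjusted p = 1.6e-09). LMO2 and TAL1 therefore moved in opposite directions, each without overlap of libraries.

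The myeloid factors split among themselves. SPI1 was at 62.9, 67.2 and 65.9 CPM in EV and 105, 90.7 and 93.2 CPM in HSP90α-KO, a rise of 0.56 ± 0.047 on the log2 scale (adjusted p = 1.1e-10). CEBPA, present at few reads, had 88 to 110 reads a library in EV and 36 to 42 in HSP90α-KO. In CPM these were 4.42, 4.24 and 4.19 and 2.05, 1.92 and 1.85, a log2 fold change of -1.11 ± 0.14 (adjusted p = 1.1e-07) and 2.16-fold lower. The log2 value was -0.85 with 1 CPM added to every value and -0.42 with 5 CPM added, so its size rests on the handling of low levels. RUNX1 was at 121, 122 and 122 CPM in EV and 150.5, 138 and 142 CPM in HSP90α-KO (0.24 ± 0.035, adjusted p = 1.6e-06), so that SPI1 and RUNX1 were higher and CEBPA lower.

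**Figure D2:**
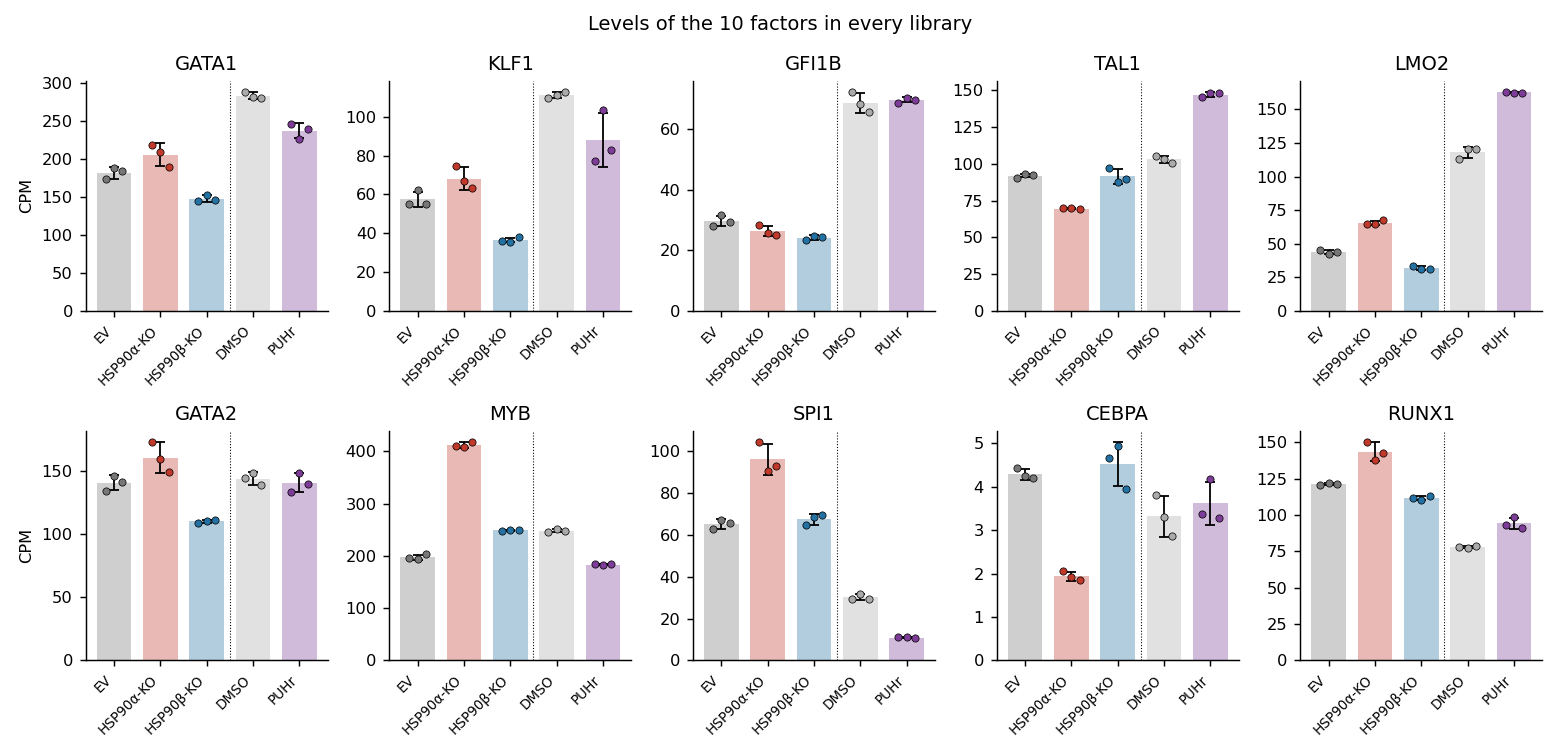
CPM of each factor in every library (points), with the group mean (bars) and SD (error bars); the dotted line parts the 2 tables, which were normalized separately. MYB is highest in HSP90α-KO at 408 to 419 CPM, CEBPA lowest there at 1.85 to 2.05 CPM, and SPI1 lowest in PUHr at 10.6 to 11.3 CPM.

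In HSP90β-KO against EV, the erythroid factors fell together while SPI1, CEBPA and TAL1 did not pass the test. Of the 10 factors, 1 was higher and 6 were lower, where 17.2% of tested genes were higher and 17.2% lower. Over all tested genes this split was 2938 higher and 2926 lower, and 2134 and 3673 after centring each library on its median. The count of changed factors was 0 by limma, 0 with voom weights on the recovered reads and 0 at an unadjusted p under 0.05 with the same limit of fold change, and 4.48% of tested genes were changed. At an unadjusted p under 0.05 alone, 7 factors passed, as with voom. Libraries lay apart for 7 factors, against 46.6% of tested genes.

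KLF1 fell furthest, from 55.3, 62.1 and 55.2 CPM to 36.05, 35.7 and 37.9 CPM, a log2 fold change of -0.65 ± 0.054 (adjusted p = 2.1e-10). GATA1 was at 144, 153 and 146 CPM in HSP90β-KO (-0.30 ± 0.042, adjusted p = 2.6e-06). GFI1B was at 23.3, 24.7 and 24.5 CPM (-0.30 ± 0.058, adjusted p = 0.00024). For each of these 3 genes, every HSP90β-KO library lay below every EV library.

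LMO2 and GATA2 fell as well, and MYB rose. LMO2 was at 33.6, 31.1 and 31.0 CPM in HSP90β-KO (-0.46 ± 0.046, adjusted p = 7.2e-09) and GATA2 at 109, 110.1 and 111 CPM (-0.35 ± 0.042, adjusted p = 1.7e-07). MYB was at 248, 250.1 and 250.2 CPM (0.34 ± 0.029, adjusted p = 4.5e-10), above EV and below HSP90α-KO in every library. TAL1, at 96.9, 87.7 and 89.7 CPM, overlapped with EV, with a difference of -0.0097 (95% interval -0.090 to 0.070, adjusted p = 0.88).

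Of the myeloid factors, SPI1 was at 64.7, 68.6 and 69.7 CPM, a difference of 0.050 (95% interval -0.046 to 0.15, adjusted p = 0.45). CEBPA was at 4.67, 4.95 and 3.96 CPM (0.072, 95% interval -0.21 to 0.35, adjusted p = 0.73). Both overlapped with EV, and CEBPA had 98 to 116 reads a library in HSP90β-KO. RUNX1 was slightly lower at 111, 110.4 and 113 CPM (-0.12 ± 0.035, adjusted p = 0.0085), a call that was lost without the intensity trend (adjusted p = 0.060).

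The direct comparison of HSP90α-KO with HSP90β-KO tested where the isoforms differed. Of the 10 factors, 7 were higher in HSP90α-KO, 2 lower and 1 (GFI1B) did not pass, against 30.1% of tested genes higher and 29.8% lower. LMO2 (1.04 ± 0.046, adjusted p = 9.9e-17) and CEBPA (-1.18 ± 0.14, adjusted p = 2.7e-08) were changed, as were 12.7% of tested genes. With 5 CPM added to every value these were 0.94 and -0.46. KLF1 differed by 0.90 ± 0.054 (adjusted p = 7.8e-14), MYB by 0.72, GATA2 by 0.54, SPI1 by 0.51, GATA1 by 0.47 and RUNX1 by 0.36, all higher in HSP90α-KO with adjusted p of at most 1.1e-09. TAL1 was lower in HSP90α-KO (log2 fold change -0.39, adjusted p = 1.9e-09). GFI1B differed by 0.12 (95% interval 0.0013 to 0.24, adjusted p = 0.076). The libraries lay apart for all 10 factors, which was so for 63.8% of tested genes.

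In PUHr against DMSO, SPI1 gave the largest difference of the 10 factors. Of the 10 factors, 3 were higher and 4 lower, where 25.6% of the 16503 tested genes were higher and 25.8% lower. SPI1 was the 1 changed factor, as were 10.1% of tested genes, and libraries lay apart for 7 factors, against 58.5% of tested genes. The median over the 10 factors was -0.0074, and over all tested genes 0.0047.

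SPI1 was at 29.5, 32.0 and 29.5 CPM in DMSO and 11.01, 11.3 and 10.6 CPM in PUHr. The resistant libraries held 239 to 274 reads of it against 629 to 763, and lay below all DMSO libraries by a log2 fold change of -1.46 ± 0.059 (adjusted p = 4.5e-11), or 2.75-fold. CEBPA was at 3.80, 3.31 and 2.86 CPM in DMSO and 3.37, 4.18 and 3.29 CPM in PUHr, overlapping, with a difference of 0.12 (95% interval -0.19 to 0.43, adjusted p = 0.53). RUNX1 rose from 77.9, 77.2 and 78.8 CPM in DMSO to 92.9, 98.7 and 91.2 CPM in PUHr (0.27 ± 0.035, adjusted p = 1.1e-05).

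The erythroid factors did not rise as SPI1 fell. GATA1 was at 288, 282 and 279 CPM in DMSO and 245, 226 and 239 CPM in PUHr, lower in all 3 resistant libraries (-0.26 ± 0.030, adjusted p = 4.1e-06). KLF1 was at 109.7, 111 and 113 CPM in DMSO and 77.2, 104 and 82.9 CPM in PUHr, the replicate 2 of PUHr being well above the other two (-0.35 ± 0.075, adjusted p = 0.0012). Without that library, the KLF1 difference was -0.48, and without the intensity trend it no longer passed (adjusted p = 0.057). GFI1B was at 72.4, 68.4 and 65.6 CPM in DMSO and 68.9, 70.5 and 69.8 CPM in PUHr, a difference of 0.021 (95% interval -0.062 to 0.10, adjusted p = 0.68).

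Of the shared factors, TAL1 rose from 105, 103 and 101 CPM in DMSO to 145, 148 and 148 CPM in PUHr (0.51 ± 0.028, adjusted p = 1.4e-09). LMO2 rose from 113, 121 and 120.3 CPM in DMSO to 163, 162 and 162 CPM in PUHr (0.46 ± 0.030, adjusted p = 8.5e-09). Here TAL1 and LMO2 moved in one direction, unlike in HSP90α-KO. MYB fell from 246, 252 and 248 CPM in DMSO to 184, 182 and 184 CPM in PUHr (-0.44 ± 0.024, adjusted p = 1.2e-09). GATA2 was at 145, 149 and 139 CPM in DMSO and 134, 149 and 139 CPM in PUHr, a difference of -0.036 (95% interval -0.12 to 0.046, adjusted p = 0.46), which passed without PUHr replicate 2 (-0.077, adjusted p = 0.038).

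**Figure D3:**
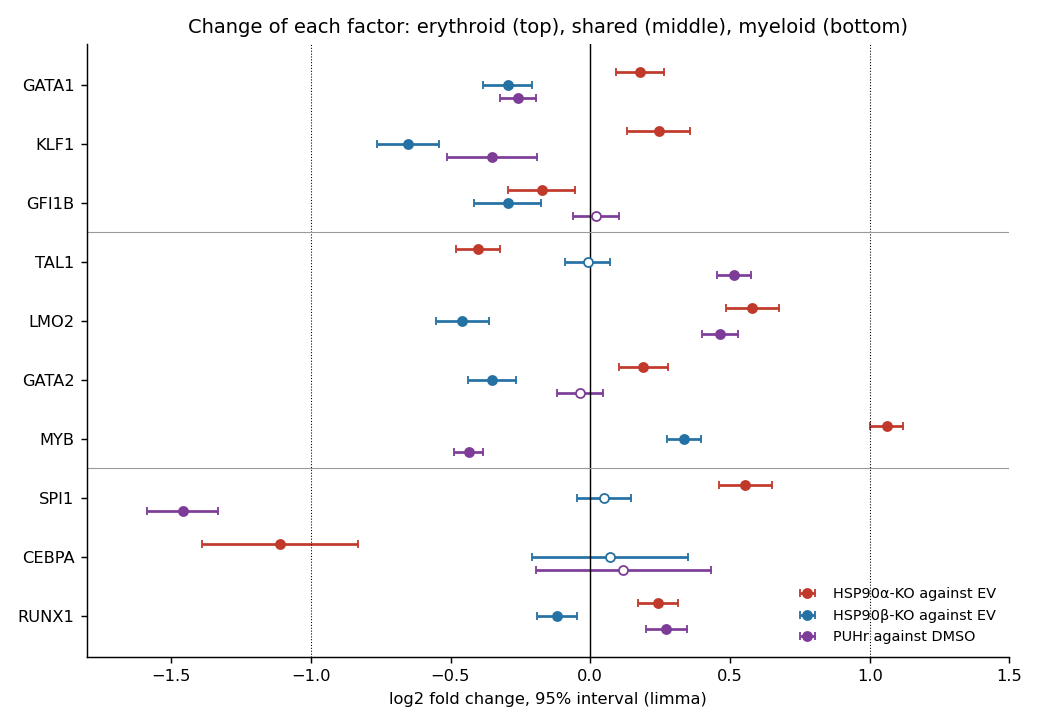
Log2 fold change of each factor with its 95% interval from limma, for HSP90α-KO and HSP90β-KO against EV and PUHr against DMSO; filled points passed an adjusted p of 0.05 and dotted lines mark -1 and 1. MYB (1.06) and CEBPA (-1.11) pass the limits in HSP90α-KO and SPI1 (-1.46) in PUHr.

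Set side by side, each side held factors that moved in both directions in HSP90α-KO. In HSP90β-KO all 3 erythroid factors fell, and of the myeloid factors 1 fell and the other two did not pass. In PUHr 2 erythroid factors fell, SPI1 fell and RUNX1 rose. The mean log2 level of GATA1, KLF1 and GFI1B less that of SPI1, CEBPA and RUNX1, relative to the control group, was 0.187 ± 0.0520 (SD, n = 3) in HSP90α-KO, -0.415 ± 0.0526 in HSP90β-KO and 0.160 ± 0.0483 in PUHr. These differences are given as a description without a test. A single myeloid factor set the sign in HSP90α-KO, where the value was -0.316 without CEBPA, and in PUHr, where it was -0.391 without SPI1, while in HSP90β-KO it was -0.390 without SPI1, -0.379 without CEBPA and -0.475 without RUNX1. In HSP90α-KO, GATA1 less CEBPA was 1.29 while GATA1 less SPI1 was -0.379, so that GATA1 gained on CEBPA and lost against SPI1. In HSP90β-KO, GATA1 less SPI1 was -0.346 and GATA1 less CEBPA -0.368, with SPI1 and CEBPA not passing the test. In PUHr, GATA1 less SPI1 was 1.20 and GATA1 less CEBPA -0.376. In the plot of SPI1 against GATA1, HSP90α-KO libraries lie where both are above EV and PUHr libraries where both are below DMSO.

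**Figure D4:**
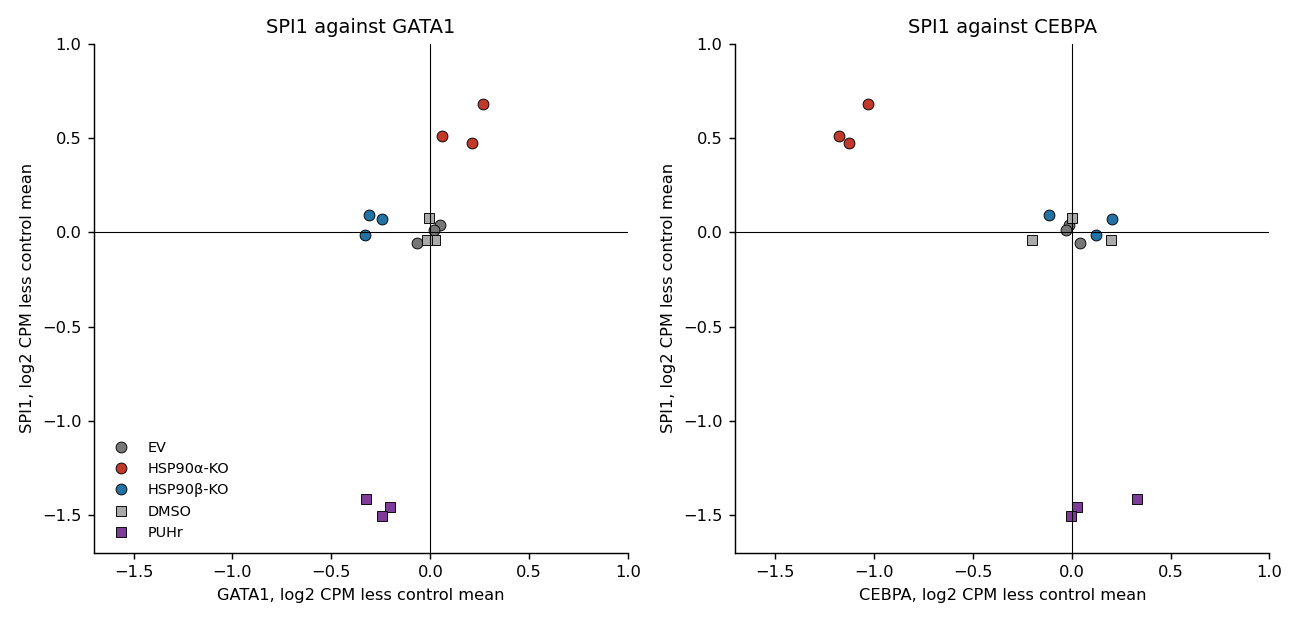
Each library's SPI1 level against GATA1 (left) and against CEBPA (right), as log2 CPM less the mean of the control group of the same table (EV or DMSO). SPI1 and GATA1 are both above control in HSP90α-KO and both below in PUHr, while SPI1 and CEBPA lie on opposite sides of control in HSP90α-KO.

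Genes on either side of the factors were looked at for shifts of the whole region. For each factor, the 10 tested genes on each side were taken, and their median log2 fold change lay between -0.101 and 0.175 in HSP90α-KO, between -0.0648 and 0.154 in HSP90β-KO and between -0.113 and 0.193 in PUHr. The neighbours of SPI1, a gene at chr11:47354860-47378547, had a median of 0.088 in PUHr where SPI1 itself fell by 1.46. Those of MYB, at chr6:135181308-135219173, had a median of 0.069 in HSP90α-KO where MYB rose by 1.06. Those of CEBPA, at chr19:33299934-33302534, had a median of 0.038 in the same comparison. Positions are those of GENCODE release 44 on GRCh38.

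Some factors share exon bases with a gene on the opposite strand. TAL1 shares 845 of its exon bases with the lncRNA ENSG00000226252, which had 98 to 255 reads a library in the knockout table, and GFI1B shares 349 with TSC1. GATA2 shares 78 with GATA2-AS1 and MYB 103 with MYB-AS1. CEBPA shares bases with 2 antisense lncRNAs, which had 0 reads in the resistance table. The library kit keeps strand, but the strand setting of the counting is not given in the sources used here, so reads on the shared bases cannot be told apart by strand here.

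Lists of related genes were followed beside the factors, and a gene that reached the filter on low values in every library of only one of the groups compared is likely to differ for that reason, so such genes are given by their reads and support no direction. The partners and cofactors were a list of 24 genes, of which 22 were tested in each table. In HSP90α-KO 11 were higher and 5 lower, or 50% and 22.7% against 27.5% and 26.6% of all tested genes, with a median of 0.13. BCL11A, the repressor of fetal globin, had 212 to 287 reads a library in EV and 1 to 3 in HSP90α-KO, so that it is 1 of the 5 lower and reached the filter in EV only. GFI1, a repressor related to GFI1B that acts in granulocyte formation, rose from 23 to 34 reads in EV to 262 to 314 in HSP90α-KO (3.42 ± 0.19, adjusted p = 2.1e-14), and LDB1, the cofactor that holds the GATA1, TAL1 and LMO2 complex together, rose from 149.7 to 317 CPM (1.08 ± 0.038, adjusted p = 1.5e-18). In HSP90β-KO 3 were higher and 5 lower (median -0.019), 13.6% and 22.7% against 17.2% and 17.2% of all tested genes, which is near that background. GFI1, 1 of the 5 lower, had 5 to 11 reads in HSP90β-KO and reached the filter in every library of EV only, BCL11A had 252 to 326, and LDB1 was higher in HSP90α-KO than in HSP90β-KO by 1.19. In PUHr 4 were higher and 7 lower (median 0.00052), 18.2% and 31.8% against 25.6% and 25.8%, which is near that background. Of the 7 lower, 2 reached the filter in DMSO only: GFI1, with 93 to 103 reads in DMSO and 8 to 9 in PUHr, and BCL11A, with 106 to 141 and 0 to 1.

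The erythroid target genes, a list of 22 for globins, heme synthesis and red cell membrane, were mostly lower in HSP90α-KO, where GATA1 and KLF1 were higher. Of the 18 tested, 4 were higher and 13 lower, or 22.2% and 72.2% against 27.5% and 26.6% of all tested genes, with a median of -0.35. SLC4A1, the red cell anion exchanger, is 1 of the 4 and reached the filter in every library of HSP90α-KO only. ALAS2, the first enzyme of heme synthesis in red cells, fell from 204 to 69.4 CPM (-1.56 ± 0.034, adjusted p = 5.5e-23). HBG2, a fetal globin, fell from 15.05 to 6.47 CPM (-1.22 ± 0.10, adjusted p = 1.5e-10), and the α-globin HBA2 from 2.82 to 1.08 CPM (-1.33 ± 0.19, adjusted p = 1.4e-06). HBG1 and HBG2, and HBA1 and HBA2, are near-identical copies, so reads on either are uncertain. In HSP90β-KO, where GATA1, KLF1 and GFI1B all fell, 2 were higher and 8 lower (11.1% and 44.4% against 17.2% and 17.2%) with a median of -0.12, which was -0.076 over the 17 genes whose log2 CPM averaged at least -1 over all libraries of the table. Directly compared, 5 were higher in HSP90α-KO and 11 lower (27.8% and 61.1% against 30.1% and 29.8%, median -0.33), with ALAS2 and HBG2 lower at log2 fold changes of -1.13 and -1.20. SLC4A1, again among those higher, had 15 to 17 reads against 4 to 5. In PUHr, 6 of the 19 tested were higher and 10 lower (31.6% and 52.6% against 25.6% and 25.8%), with a median of -0.18. HBA2 fell there from 12.5 to 2.75 CPM (-2.15 ± 0.11, adjusted p = 4.6e-10). ALAS2, named here after its values were seen, went the other way from HBA2 and rose in PUHr by 1.01 ± 0.030 on the log2 scale (adjusted p = 1.7e-12), the 1 gene of the list that was changed and higher. Of the 10 lower, 2 reached the filter in DMSO only: SLC4A1, with 54 to 70 reads in DMSO and 4 to 13 in PUHr, and AHSP, the α-globin chaperone, with 14 to 22 and 0 to 1. By the mean over all libraries, 6 of 18 were higher and 9 lower, with a median of -0.12.

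The myeloid target genes, a list of 24, were mostly higher in HSP90α-KO, lower in HSP90β-KO and lower in PUHr. Of the 12 tested in the knockout table, 9 were higher and 1 lower in HSP90α-KO, or 75% and 8.33% against 27.5% and 26.6% of all tested genes, with a median of 0.61. NCF4, a subunit of the phagocyte oxidase, rose from 23 to 28 reads in EV to 149 to 163 (2.76 ± 0.21, adjusted p = 1.1e-11). FCGR1A, an Fc receptor of monocytes, rose from 9.57 to 23.0 CPM (1.26 ± 0.078, adjusted p = 1.9e-13). PRTN3, a granule protease counted among the 9, had 1 to 5 reads in EV and 11 to 19 in HSP90α-KO and reached the filter in HSP90α-KO only. By the mean over all libraries, which leaves PRTN3 out, 8 of 11 were higher and 1 lower, with a median of 0.58. In HSP90β-KO, 0 of the 12 were higher and 7 lower by limma (58.3%, against 17.2% of all tested genes in either direction), with a median of -0.27. CSF3R, the G-CSF receptor, fell there from 85.5 to 25.4 CPM (-1.75 ± 0.045, adjusted p = 9.3e-21). Directly compared, 11 of the 12 were higher in HSP90α-KO and 0 lower (91.7%, against 30.1% higher and 29.8% lower of all tested genes), with a median of 1.05, among them NCF4 by 3.46 and CSF3R by 2.39. By the mean over all libraries, 10 of 11 were higher, with a median of 0.995. In PUHr, 1 of the 10 tested was higher and 7 lower (10% and 70% against 25.6% and 25.8%), with a median of -0.65, and SRGN and NCF4, both among the 7, reached the filter in DMSO only. SRGN, the granule proteoglycan serglycin, had 188 to 212 reads in each DMSO library and 0 in every PUHr library, at least 69.96-fold lower against a floor of 3 reads a library. It is the lowest gene of the list at this bound too, so the median does not depend on it. NCF4 had 26 to 31 reads in DMSO and 7 to 9 in PUHr. CEBPD, a C/EBP factor of inflammatory responses, fell from 3.49 to 1.64 CPM (-1.17 ± 0.28, adjusted p = 0.0026), with 24 to 65 reads in PUHr.

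The megakaryocytic target genes were a list of 14, of which the first table gave 6 tested genes and the second 10. In HSP90α-KO 1 was higher and 2 lower (16.7% and 33.3% against 27.5% and 26.6% of all tested genes, median -0.11), which is near the background. In HSP90β-KO 1 was higher and 3 lower (16.7% and 50% against 17.2% and 17.2%, median -0.36), so few genes carry these shares. THBS1, the platelet protein thrombospondin, rose from 21 to 31 reads in EV to 90 to 97 in HSP90β-KO (1.81 ± 0.19, adjusted p = 1.6e-08). Between the knockouts 1 was higher in HSP90α-KO and 1, THBS1, lower (-1.24), with a median of -0.085 that was 0.11 over the 5 genes that averaged at least -1. In PUHr 6 of 10 were higher and 2 lower (60% and 20% against 25.6% and 25.8%), with a median of 0.45. Of the 6 higher, 3 platelet genes reached the filter in PUHr only: VWF, PPBP and GP6 had 2 to 6, 2 to 10 and 3 to 4 reads in DMSO and 27 to 35, 28 to 32 and 15 to 21 in PUHr. By the mean over all libraries, 5 of 9 were higher and 2 lower, with a median of 0.25. ITGA2B, the platelet integrin αIIb and the 1 gene of the list that was changed and lower, fell from 245 to 289 reads in DMSO to 114 to 155 in PUHr (-1.11 ± 0.095, adjusted p = 1.7e-07). The megakaryocyte marker list (PF4, PPBP, GP9, ITGA2B) as a whole summed to 12.01 to 12.5 CPM in DMSO and 6.36 to 7.35 CPM in PUHr, most of it ITGA2B, and PF4 and GP9 had at most 1 read in any library of either group.

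**Figure D5:**
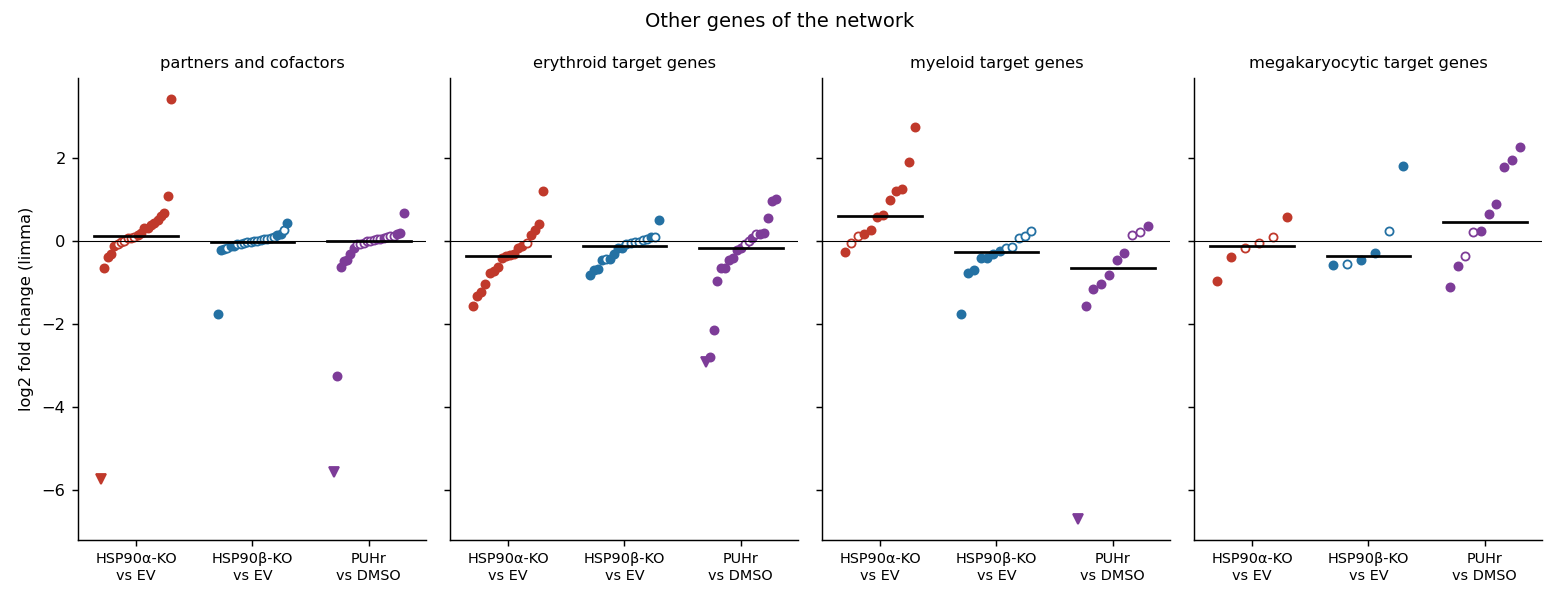
Log2 fold change of every tested gene of the 4 lists in each comparison; filled points passed an adjusted p of 0.05, black lines are list medians and triangles are genes with at most 3 reads in each library of the knockout or resistant group, whose fitted value depends on the prior count. The medians of the myeloid list are 0.61 in HSP90α-KO, -0.27 in HSP90β-KO and -0.65 in PUHr.

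Genes with the pattern most like GATA1 and SPI1 were found among 11725 genes by the root mean square distance of log2 CPM less the control mean over all 15 libraries. For GATA1 they were TMEM120A (0.070), ARV1 (0.076) and MRPL44 (0.079), where the median distance was 0.27. For SPI1 they were LINC01029 (0.10), FMNL1 (0.10) and ICAM1 (0.11), where the median distance was 0.72. FMNL1, a formin of blood cells, was at 0.53 in HSP90α-KO, -0.11 in HSP90β-KO and -1.39 in PUHr, and ICAM1, an adhesion receptor of leukocytes, at 0.37, 0.18 and -1.42, beside 0.56, 0.050 and -1.46 for SPI1.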

How the data were processed

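RNA-seq of K562 cells (3 libraries per group) was read from 2 tables. Adapter trimming, alignment with RNA STAR to GRCh38, gene counting by featureCounts and scaling by edgeR were done by the authors (tools and build hg38 also in the submitters' notes, versions not given). The values as deposited by the authors are log2 CPM with a prior count of 2. On the linear scale, less a floor of 0.0904 and 0.0856 CPM, 100% of values were whole reads within 0.01 read (whole reads recovered). CPM in the text is the linear value less the floor. Columns headed DSMO were taken for the DMSO libraries. The 30 and 114 entries without identifier (at most 0.036% of reads) were left out. The knockout table holds no gene at 0 in all libraries, so genes of a list that are absent from it were not analysed here.

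Each table was fitted once with limma 3.58.1 in R 4.3.3 (lmFit, contrasts, eBayes with an intensity trend), two-sided, without a replicate block, with Benjamini-Hochberg adjustment over all tested genes. No test crosses the tables, which were normalized separately. An exact permutation test of 3 against 3 libraries cannot go below p = 0.1, so none is given. On simulated counts, 199 of 200 planted changes were recovered among 16857 genes for HSP90α-KO against EV. The members and the gene lists were chosen with earlier results of these data known, and the lists are no independent evidence. The text names all members, both HSP90 genes, up to 3 changed genes of a list per comparison by size of log2 fold change, and the 3 genes nearest in pattern to GATA1 and SPI1. Beyond these, it names genes that reached the filter in only 1 of the groups compared, and ALAS2 and ITGA2B in PUHr. The alternatives were filters, pseudocounts, scalings, variance models (voom on recovered reads among them), thresholds, a replicate block and leaving out each library. The counts of the gene lists were also taken over genes whose log2 CPM averaged at least -1 over all libraries, an alternative chosen after seeing the data. Reads are library fragments without molecular identifiers, so floors cover counting error only. Positions and exon lengths come from GENCODE release 44, and promoter windows from RefSeq. Some marker genes are not reported here.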

Additional observations from a re-analysis of the deposited data

Results flagged for a closer look

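For 5 factors the effect of losing HSP90α and that of losing HSP90β pointed in opposite directions. Both effects, against the same EV libraries, passed an adjusted p under 0.05, and so did their difference in the direct comparison (limma). Under an alternative, 1 effect no longer passed for GATA1 (HSP90α-KO, quantile normalization, adjusted p = 0.052) and for RUNX1 (HSP90β-KO, no intensity trend, 0.060). The effect in HSP90α-KO less that in HSP90β-KO was 0.4726 for GATA1, 0.5424 for GATA2, 0.8964 for KLF1, 1.0385 for LMO2 and 0.3618 for RUNX1 on the log2 scale. In each case HSP90α-KO lay above EV and HSP90β-KO below it. CEBPA also had effects of opposite sign (-1.11 in HSP90α-KO and 0.072 in HSP90β-KO), but its effect in HSP90β-KO did not pass. Of all tested genes, 30.1% were higher and 29.8% lower in HSP90α-KO than in HSP90β-KO. The share of all genes with opposite effects was not counted, so these 5 factors are not set against a background. Both effects share the EV libraries, and each knockout may be a single clone, so isoform and clone cannot be told apart.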

How the results depend on the processing

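Each factor's log2 fold change was recomputed under 21 alternatives for the knockouts and 17 for PUHr. Of the 800 values for 40 results, 784 kept direction and call, 8 kept direction but no longer passed, 4 newly passed and 4 changed sign. Call here means the adjusted p alone, without the limit of fold change. Some alternatives, such as another filter, a stricter threshold or the replicate block, left the log2 fold change as it was, so the 784 include values that could not change direction. The calls lost were GATA1 in HSP90α-KO (quantile normalization), GFI1B there (5 alternatives), and RUNX1 in HSP90β-KO and KLF1 in PUHr (no intensity trend). The count of changed factors in HSP90α-KO against EV went from 2 to 1 with 1 CPM or 5 CPM added (CEBPA under the limit) and to 1 with quantile normalization (MYB under the limit). Between the knockouts it went from 2 to 1 with 1 CPM added and to 0 with 5 CPM added. Both signs that turned were of differences that did not pass: TAL1 in HSP90β-KO was 0.020 without HSP90β-KO replicate 2 and 0.00311 without replicate 3 (range over single libraries left out -0.052 to 0.020), and GFI1B in PUHr was -0.026 with median centring and -0.013 without DMSO replicate 3 (range -0.013 to 0.058). GFI1B between the knockouts newly passed with quantile normalization and with median centring (0.16 in both) and without HSP90α-KO replicate 3 (0.16). Median centring moved the split of all genes in HSP90β-KO from 2938 higher and 2926 lower to 2134 and 3673. Replicate numbers did not pair the libraries (correlation of deviations of same-numbered libraries -0.048 to 0.045), and with a replicate block the counts of changed factors stayed at 2, 0, 2 and 1 in the order of the comparisons, and those of different factors at 10, 7, 9 and 7. The causes of these shifts were not tested. Depth limits CEBPA most, at 36 to 116 reads a library.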

Other observations

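The 2 control groups, both K562, differed in the levels of several factors. EV and DMSO means were 29.7 and 68.8 CPM for GFI1B, 43.9 and 118 CPM for LMO2, 57.5 and 111 CPM for KLF1, 181 and 283 CPM for GATA1, 65.3 and 30.4 CPM for SPI1 and 121 and 78.0 CPM for RUNX1, while GATA2 was at 141 and 144 CPM and CEBPA at 4.29 and 3.33 CPM. The tables were normalized separately and hold different gene sets, and the groups differ in vector, culture time and solvent, so these values stand side by side without a test.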
